A study of Mus musculus with 48 samples.

Results

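The transcripts described here are those of 9 mouse genes that respond to, or shape, signalling by transforming growth factor beta (TGF-beta) and bone morphogenetic proteins (BMPs): Bmp4, Grem1, Smad6, Smad7, Skil, Id1, Id2, Id3 and Klf10. They were found by their symbols, as 9 of 55335 gene rows in each of 4 tables of FPKM values, which are fragment numbers divided by transcript length and library size. The genes were chosen by name with their fold changes in these same libraries already known, so their values below are a description and the calls among them support nothing. TGF-beta and BMP ligands bind pairs of receptor kinases, which phosphorylate Smad proteins that enter the nucleus and switch genes on or off. In bone, BMPs drive the formation of osteoblasts, and TGF-beta is stored in the matrix and freed when bone is resorbed. Several early targets of the pathway feed back on it, through inhibitory Smads that block the receptors and secreted antagonists that trap the ligand.

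RNA was taken from wild-type material of the C57BL/6J strain label, in 9 groups of 3 libraries. MLO-Y4, a mouse osteocyte-like cell line, was exposed to 2 µM ADP for 2 h or left without ADP. In a second experiment MLO-Y4 cells received oligomycin A, which inhibits the mitochondrial ATP synthase, at 50 µM for 1 h, or DMSO as vehicle, and the supernatants of both were put on untreated MLO-Y4 cells for 2 h. Bone fragments from mice aged 1 month were cultured for 48 h after medium transfer or as controls, and cortical bone from mice aged 18 months was sequenced without treatment. The treatment label of the vehicle libraries also names oligomycin A, and gives 50 mM where the protocol gives 50 µM; titles and protocol were followed. Labels leave unsaid which donor's medium each group of young bone got and whether replicates came from separate cultures or animals; p-values therefore cover only the spread among the libraries at hand, and this may be technical. The other 21 of 48 samples were not analysed here.

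MLO-Y4 is a single cell line, and of 6 osteocyte markers 3 reached 1 FPKM in each of its libraries. Sost, the gene of the Wnt antagonist sclerostin, was listed at 0 in all 18 of them, and Mepe and Dmp1 were listed at 0 in most. None of 5 endothelial markers reached 1 FPKM there, and their summed level was 0.014 to 0.079 FPKM. Old bone carried a large marrow signal, with 356543 to 379015 FPKM summed over 6 erythroid markers, and its protocol says that marrow was harvested with it. In vehicle replicate 2 genes of rRNA-like and 7S transcripts took 28.6% of the summed FPKM, while they took 0.356% to 0.554% in the remaining 11 libraries of that table. Sequencing depth is unknown, because counts could not be recovered from the FPKM values.

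In GRCm38 all 9 genes are annotated as protein-coding. Id3 (ENSMUSG00000007872) is at chr4:136143497-136145755 on the plus strand, and Id1 (ENSMUSG00000042745) at chr2:152736251-152737410 on the plus strand. Id2 (ENSMUSG00000020644) is at chr12:25093799-25097140 on the minus strand, and Klf10 (ENSMUSG00000037465) at chr15:38291463-38300706 on the minus strand. Smad6 (ENSMUSG00000036867) is at chr9:63953076-64022059 on the minus strand. Skil (ENSMUSG00000027660) is at chr3:31095058-31122577 on the plus strand. Grem1 (ENSMUSG00000074934) is at chr2:113746164-113758646 and Bmp4 (ENSMUSG00000021835) at chr14:46383520-46390669, both on the minus strand.

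The 250 bases before the RefSeq start (GRCm38.p6) are shown for 3 of the genes whose values contrast most: Id3, which was high after oligomycin A, Id2, of the same family, which was not, and Grem1, the most abundant of the 9 in MLO-Y4. For Id3 and Id2 these bases lie inside the gene spans given above, so those spans begin further upstream than the RefSeq start used. The windows are chr4:136143572-136143821 on the plus strand for Id3, chr12:25096093-25096342 on the minus strand for Id2 and chr2:113758649-113758898 on the minus strand for Grem1. Each reads 5′ to 3′ toward the start, and capitals mark GGCGCC, a GC-rich Smad element:
Id3: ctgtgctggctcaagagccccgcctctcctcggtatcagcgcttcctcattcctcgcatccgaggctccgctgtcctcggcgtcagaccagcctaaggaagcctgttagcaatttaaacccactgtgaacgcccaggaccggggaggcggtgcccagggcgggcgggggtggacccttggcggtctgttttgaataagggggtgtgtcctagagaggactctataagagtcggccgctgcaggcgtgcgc
Id2: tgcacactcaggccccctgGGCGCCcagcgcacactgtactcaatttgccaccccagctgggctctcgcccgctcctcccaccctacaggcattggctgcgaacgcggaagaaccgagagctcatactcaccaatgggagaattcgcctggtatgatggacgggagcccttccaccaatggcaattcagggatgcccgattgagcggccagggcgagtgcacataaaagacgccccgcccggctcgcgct
Grem1: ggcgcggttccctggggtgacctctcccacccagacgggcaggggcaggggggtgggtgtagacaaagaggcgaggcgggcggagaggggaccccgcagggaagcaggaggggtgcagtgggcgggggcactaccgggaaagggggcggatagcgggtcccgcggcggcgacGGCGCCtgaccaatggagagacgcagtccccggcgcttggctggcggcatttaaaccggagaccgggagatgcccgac

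GGCGCC, which reads the same on both strands, stood once before Id2, at bases 231 to 226 upstream, and once before Grem1, at bases 78 to 73 upstream. These letters were not in the windows of Id3, Smad6 or Bmp4, and 9.6% of 32851 RefSeq promoter windows of this length hold them. Searched on both strands, the Smad palindrome GTCTAGAC (0.2% of all windows), the CAGACA core of the CAGA box (17.1%), the cyclic AMP response element TGACGTCA (1.5%), the AP-1 element TGANTCA (6.7%) and the TATA box core TATAAA (12.4%) were in 0 of the 5 windows. CCAAT, held by 33.8% of all windows, stood 3 times before Id2 and once before Grem1. The 5 windows were 62.8% to 72.0% G and C, against a median of 52.4% over all windows. No sequence is shown for Klf10, Id1, Skil and Smad7.

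**Figure D1:**
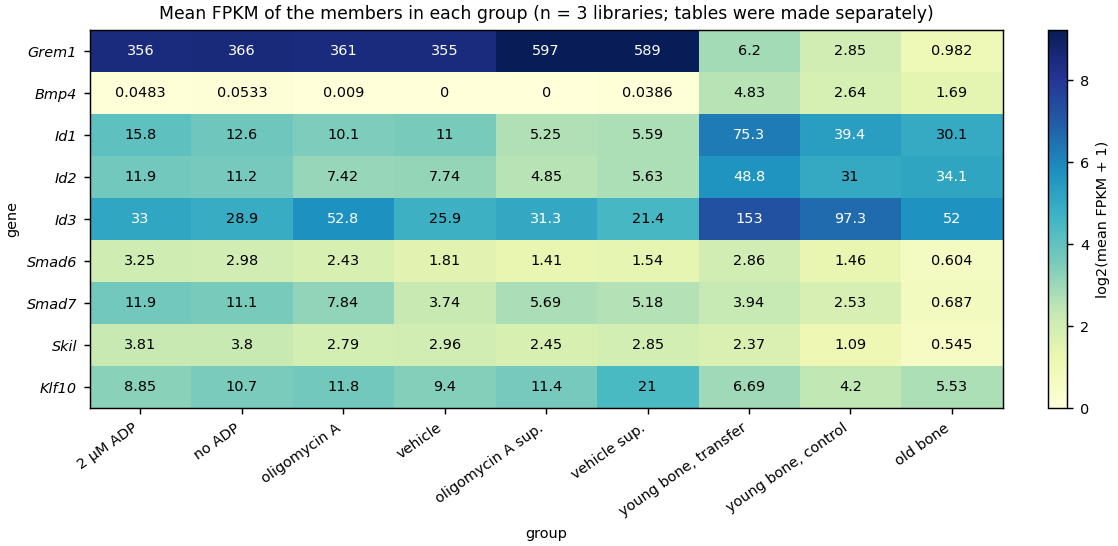
Mean FPKM of the 9 genes (rows) in each of 9 groups (columns, 3 libraries each), with the mean printed in each cell and the shade giving log2(mean FPKM + 1). Grem1 averaged 355 to 597 FPKM in the MLO-Y4 groups and 0.982 to 6.20 FPKM in bone, while Bmp4 was near 0 in MLO-Y4.

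Bmp4, a secreted BMP ligand, was at or near 0 in MLO-Y4. It was listed at 0 in 9 of 12 libraries of the oligomycin A experiment and never passed 0.0889 FPKM in the 18 MLO-Y4 libraries, so no fold is given there. In bone it was measured in each library. It had 6.74, 6.35 and 1.42 FPKM in young bone after medium transfer, against 2.58, 2.93 and 2.42 FPKM in young control bone, so that transfer replicates 1 and 2 were above and replicate 3 below all controls. Old bone had 1.61, 2.09 and 1.38 FPKM.

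Grem1 encodes gremlin 1, a secreted antagonist that binds BMP2, BMP4 and BMP7. It was the opposite of Bmp4 in its levels: in MLO-Y4 its mean ranked between 45 and 88 among the genes above 0 in each group, and in old bone it ranked 10473 of 31259. In young bone the ratio of Grem1 to Bmp4 was 0.907, 1.66 and 1.37 within the 3 transfer libraries and 1.22, 0.751 and 1.32 within the controls. In old bone this ratio was 0.765, 0.451 and 0.561, under 1 in all 3 libraries. These levels stand in separately normalized tables and were not tested against each other.

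Oligomycin A-treated cells were set against vehicle-treated cells to ask what blocking ATP synthase does to transcripts within 1 h. Id3 and Smad7 were the members that stood apart, each at about double its vehicle level, while Id1 and Id2 lay at theirs. Id3 is an inhibitor of basic helix-loop-helix factors and a direct BMP target. It had 50.3, 59.2 and 48.8 FPKM in oligomycin A-treated cells, against 27.2, 25.5 and 24.9 FPKM in vehicle-treated cells. The libraries did not overlap, and the log2 fold change was 1.00 ± 0.07 (SE, n = 3 each). The share of all genes whose libraries do not overlap was not determined. Overlap or its absence, here and below, therefore only describes the values.

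Smad7 (ENSMUSG00000025880, chr18:75367529-75395935, plus strand), the inhibitory Smad that blocks TGF-beta receptors and recruits ubiquitin ligases to them, had 7.94, 8.19 and 7.38 FPKM in oligomycin A-treated cells, against 3.67, 3.75 and 3.81 FPKM in vehicle-treated cells. These did not overlap either, with a log2 fold change of 0.90 ± 0.09 (SE). Smad6, the inhibitory Smad that acts mainly on BMP signalling, had 2.68, 2.40 and 2.21 FPKM in oligomycin A-treated cells, against 1.95, 1.62 and 1.86 FPKM in vehicle-treated cells. Its libraries also lay apart, with a log2 fold change of 0.29 ± 0.09, but it did not pass the threshold. In oligomycin A-treated cells Smad7 exceeded Smad6 by 2.96, 3.41 and 3.35 times within a library, against 1.88, 2.31 and 2.05 times in vehicle-treated cells.

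Id1 and Id2 encode close relatives of Id3 that act in the same way. Id1 had 8.14, 11.1 and 11.1 FPKM in oligomycin A-treated cells, against 10.8, 9.74 and 12.6 FPKM in vehicle-treated cells. Id2 had 6.84, 8.72 and 6.69 FPKM in oligomycin A-treated cells, against 7.32, 6.04 and 9.86 FPKM in vehicle-treated cells. Both overlapped, with log2 fold changes of -0.12 ± 0.11 for Id1 and -0.04 ± 0.19 for Id2 (SE). Of the summed FPKM of the 3 Id genes, a within-library share that no rescaling of a library changes, Id3 made up 77.1%, 75.0% and 73.3% in oligomycin A-treated cells, against 60.0%, 61.7% and 52.7% in vehicle-treated cells.

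Klf10, a zinc finger repressor first described as a gene induced early by TGF-beta, had 13.6, 8.13 and 13.6 FPKM in oligomycin A-treated cells, against 9.38, 8.03 and 10.8 FPKM in vehicle-treated cells. Oligomycin A replicate 2 lay within the vehicle libraries, and the log2 fold change was 0.27 ± 0.18. Skil, which encodes SnoN, a corepressor that binds Smads and is degraded on TGF-beta stimulation, had a log2 fold change of -0.06 ± 0.10, with 2.61, 3.17 and 2.60 FPKM in oligomycin A-treated cells and 2.90, 3.12 and 2.86 FPKM in vehicle-treated cells. Grem1 had 359, 363 and 362 FPKM in oligomycin A-treated cells, against 364, 324 and 377 FPKM in vehicle-treated cells, and a log2 fold change of 0.03 ± 0.05. All 3 of these genes overlapped between the groups.

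In the limma fit over 11902 genes, an adjusted p below 0.05 was reached by 2 of the 8 members tested, Id3 and Smad7, both higher. Over all genes 5.34% passed, 3.71% higher and 1.63% lower; since the members were chosen on this contrast, nothing is read from their count. The split of 442 higher and 194 lower genes moved with the scaling and with 1 library: it was 257 and 19 at a common total, where the median over all genes was 0.12, 631 and 502 without rRNA-like genes, and 286 and 366 without vehicle replicate 2. Bmp4 fell below the filter of a mean of 1 FPKM. The median log2 fold change was 0.15 over the 8 members and -0.0037 over all genes tested. Id3 and Smad7 passed under all 13 alternative settings, and when vehicle replicate 2 was omitted their log2 fold changes were 0.99 and 0.90.

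**Figure D2:**
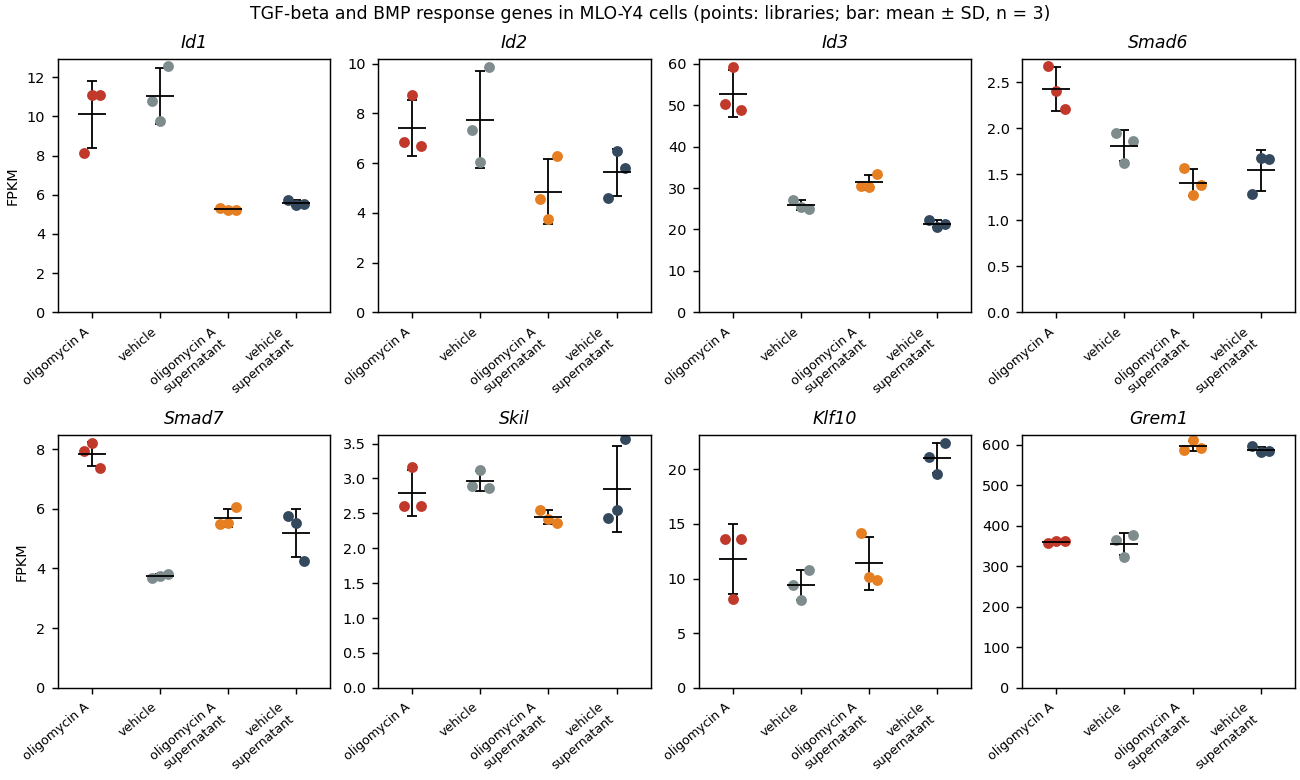
FPKM of 8 members in MLO-Y4 cells of the oligomycin A experiment, with points for libraries and bars for the mean ± SD of 3. Id3 lay at 48.8 to 59.2 FPKM after oligomycin A against 24.9 to 27.2 FPKM after vehicle, and Klf10 at 9.82 to 14.2 FPKM in oligomycin A-supernatant recipients against 19.6 to 22.4 FPKM in vehicle-supernatant recipients.

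Further genes of the pathway were counted from 7 lists of 84 genes in all, none of them a member, of which 52 passed the filter. After oligomycin A 6 rose and 0 fell, and 33 of 52 had a positive fold change. Over all genes 5.34% passed and 3.71% were higher, and as the lists were chosen with earlier results of these data known, nothing is read from their counts here or in the comparisons that follow. The median was 0.09 on the log2 scale, against -0.0037 over all genes tested. By list, 4 of 11 other targets rose, with 1 of 10 intracellular and membrane inhibitors and 1 of 6 receptor-regulated and common Smads. Of 4 ligands, 9 receptors, 9 secreted antagonists and 3 E proteins, the partners that Id proteins bind, 0 passed. Junb, an AP-1 subunit, had 341, 332 and 326 FPKM in oligomycin A-treated cells, against 122, 116 and 116 FPKM in vehicle-treated cells, and rose by 1.49 ± 0.08 on the log2 scale (limma, adjusted p = 1.37e-06).

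Tgif1, a corepressor of Smads, averaged 25.9 ± 0.49 FPKM in oligomycin A-treated cells and 16.0 ± 1.01 FPKM in vehicle-treated cells (SD, n = 3 each; log2 fold change 0.66, limma, adjusted p = 0.00321). Angptl4, a secreted inhibitor of lipoprotein lipase, rose by 0.73 (adjusted p = 0.0124) and Klf11, a close relative of Klf10, by 0.40 (adjusted p = 0.00809). The calls of Junb, Tgif1 and Klf11 held under all 13 alternatives and that of Angptl4 under 11, with a loss without oligomycin A replicate 1 (0.71, adjusted p = 0.0533) and in the fit of only the 6 libraries (adjusted p = 0.0615). Smad3, the receptor-regulated Smad of the TGF-beta branch, averaged 40.6 ± 0.35 FPKM in oligomycin A-treated cells and 33.4 ± 1.73 FPKM in vehicle-treated cells (log2 fold change 0.28, adjusted p = 0.022). Its call held under 8 of 13 alternatives and was lost without any single oligomycin A replicate (0.27 to 0.28, adjusted p = 0.07 to 0.0798), without vehicle replicate 3 (0.28, adjusted p = 0.0597) and at a common total (0.43, adjusted p = 0.0951). Several of these genes, Junb and Angptl4 among them, are also induced by other stimuli.

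Recipients of oligomycin A supernatant were set against recipients of vehicle supernatant to ask what treated cells pass on through their medium. Oligomycin A carried over in the supernatant and substances released by the cells cannot be told apart in this design. Id3 was the member that passed the threshold, at about 1.5 times its level in vehicle-supernatant recipients, and Klf10 had the lowest fold change of the 8. Id3 had 30.4, 30.2 and 33.4 FPKM in oligomycin A-supernatant recipients, against 22.2, 20.6 and 21.4 FPKM in vehicle-supernatant recipients. The groups did not overlap, and the log2 fold change was 0.53 ± 0.07 (SE, n = 3 each). This call held under 9 of 13 alternative settings and was lost without vehicle-supernatant replicate 2 (log2 fold change 0.50) or replicate 3 (0.53).

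Klf10 had 14.2, 10.2 and 9.82 FPKM in oligomycin A-supernatant recipients, against 21.1, 19.6 and 22.4 FPKM in vehicle-supernatant recipients. The groups did not overlap, yet at a log2 fold change of -0.85 ± 0.18 Klf10 did not pass the threshold, here or under any of the 13 alternatives. Id1 had 5.31, 5.24 and 5.20 FPKM in oligomycin A-supernatant recipients, against 5.74, 5.47 and 5.55 FPKM in vehicle-supernatant recipients. Its libraries lay apart by a narrow margin, with a log2 fold change of -0.08 ± 0.11.

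Smad7 had 5.50, 5.51 and 6.04 FPKM in oligomycin A-supernatant recipients, against 5.76, 5.52 and 4.26 FPKM in vehicle-supernatant recipients, a log2 fold change of 0.12 ± 0.09. Vehicle-supernatant replicate 3 was the lowest of these, and without it the value was 0.009. Grem1 had 586, 611 and 593 FPKM in oligomycin A-supernatant recipients, against 597, 584 and 585 FPKM in vehicle-supernatant recipients, a log2 fold change of 0.02 ± 0.05. Id2, Skil and Smad6 overlapped as well, at log2 fold changes of -0.19, -0.15 and -0.08. Of the summed Id FPKM, Id3 made up 75.5%, 77.1% and 74.5% in oligomycin A-supernatant recipients, against 68.2%, 63.3% and 65.4% in vehicle-supernatant recipients.

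In this comparison 1 of the 8 members tested passed the threshold, Id3, which was higher. Over all genes 0.386% passed, 0.277% higher and 0.109% lower, and nothing is read from the members' count. Of the 52 other pathway genes 0 passed in limma, and 4 had an unadjusted p below 0.05. Their median log2 fold change was 0.02, against -0.0039 over all genes. Junb averaged 72.5 ± 6.03 FPKM in oligomycin A-supernatant recipients and 66.3 ± 8.56 FPKM in vehicle-supernatant recipients (SD, n = 3 each).

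**Figure D3:**
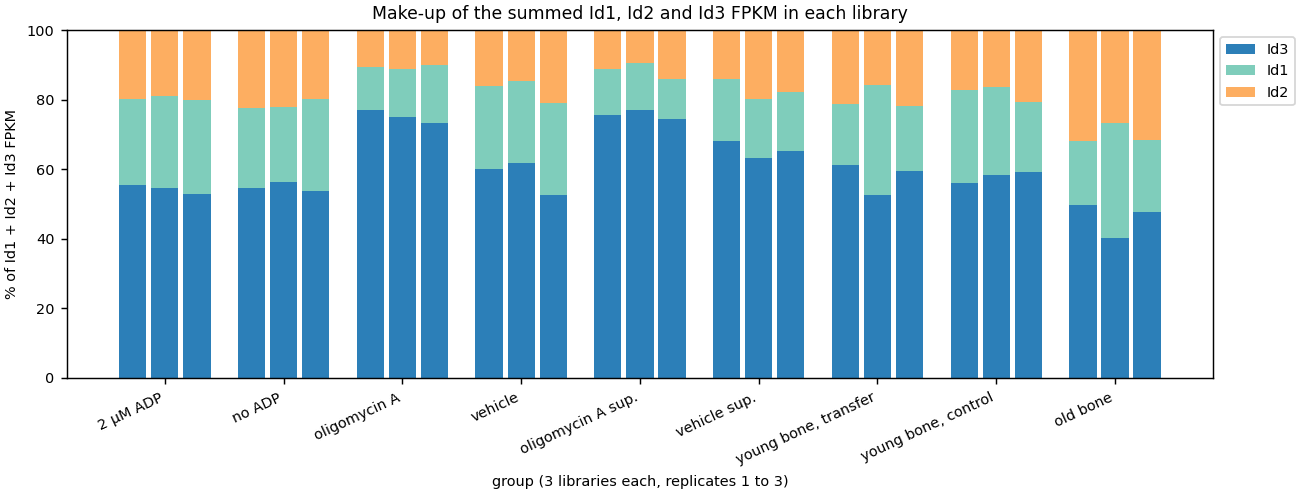
Share of Id3, Id1 and Id2 in their summed FPKM, as stacked bars to 100% for each library of the 9 groups. Id3 took 73.3% to 77.1% in cells given oligomycin A or its supernatant, and 52.7% to 68.2% in cells given vehicle or its supernatant.

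The response of recipients was then set against that of treated cells as a difference of both log2 fold changes, in the same fit. Exposure time, 2 h against 1 h, and medium also differed between recipients and treated cells, and cannot be told apart in it. Smad7 was the member that passed, with a difference of -0.78 ± 0.12 (SE): its fold change was 0.12 in recipients and 0.90 in treated cells. The call held under 10 of 18 alternatives. It was lost without vehicle replicate 1 (-0.76), oligomycin A replicate 1 (-0.77) or 2 (-0.75), vehicle-supernatant replicate 2 (-0.73) and oligomycin A-supernatant replicate 1 or 2 (-0.76 each). Klf10 had the most negative difference, -1.12 ± 0.26, and Id3 stood at -0.47 ± 0.11. Neither passed, except that Klf10 did without oligomycin A replicate 2, its low library, at -1.35.

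For this difference 1 of 8 members tested passed, and it was lower. Over all genes 0.445% passed, 0.084% higher and 0.361% lower, and nothing is read from the members' count. The split was 34 higher and 78 lower without rRNA-like genes, against 10 and 43. Of the 52 other pathway genes 2 were lower and 0 higher, both from the other targets. Junb had a difference of -1.36 ± 0.12 (limma, adjusted p = 0.000197). Klf11 had -0.61 ± 0.10 (adjusted p = 0.0195), and this call held under 9 of 18 alternatives. It was lost without vehicle replicate 1, oligomycin A replicate 1 or 3, vehicle-supernatant replicate 2 or oligomycin A-supernatant replicate 1 or 2 (-0.56 to -0.61), without the low-value filter, with the replicate block (adjusted p = 0.0628) and at a common total (adjusted p = 0.144). The median over the 52 was -0.06, against -0.0049 over all genes tested.

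Vehicle-supernatant recipients and vehicle-treated cells form the pair that received no oligomycin A. They differed in exposure time, 2 h against 1 h, and in medium, as only the recipients were given supernatant. These differences cannot be told apart. Klf10 and Grem1 were higher and Id1 lower in vehicle-supernatant recipients, each without overlap, though the share of all genes without overlap was not determined. This pair shares its libraries with the comparisons above, as the vehicle-treated cells are the controls of the first and the vehicle-supernatant recipients those of the second.

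Klf10 had 21.1, 19.6 and 22.4 FPKM in vehicle-supernatant recipients, against 9.38, 8.03 and 10.8 FPKM in vehicle-treated cells, a log2 fold change of 1.09 ± 0.18 (SE, n = 3 each). These were the 3 highest of all 18 MLO-Y4 libraries, and the other 15 lay between 5.40 and 14.2 FPKM. Grem1 had 597, 584 and 585 FPKM in vehicle-supernatant recipients, against 364, 324 and 377 FPKM in vehicle-treated cells, a log2 fold change of 0.73 ± 0.05. Both groups of supernatant recipients were above all other MLO-Y4 libraries in Grem1. The ADP libraries among these were normalized separately, so their place in both orders is a level set alongside and was not tested.

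Id1 had 5.74, 5.47 and 5.55 FPKM in vehicle-supernatant recipients, against 10.8, 9.74 and 12.6 FPKM in vehicle-treated cells, a log2 fold change of -0.86 ± 0.11. Smad7 had a log2 fold change of 0.37 ± 0.09, and its call held under 10 of 13 alternatives and was lost without vehicle-supernatant replicate 1 (0.30) or 2 (0.33). Id3 had 22.2, 20.6 and 21.4 FPKM in vehicle-supernatant recipients, against 27.2, 25.5 and 24.9 FPKM in vehicle-treated cells, a log2 fold change of -0.26 ± 0.07. Its call held under 3 of 13 alternatives and was lost on leaving out any single library of the pair, at values of -0.23 to -0.29. Id2 had -0.39 ± 0.19, Smad6 -0.15 ± 0.09 and Skil -0.05 ± 0.10, all with overlapping libraries.

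Of the 8 members tested 5 passed here, with Klf10, Grem1 and Smad7 higher and Id1 and Id3 lower. Over all genes 14.7% passed, 9.49% higher and 5.18% lower, and nothing is read from the members' count. Without vehicle replicate 2, 628 genes were higher and 731 lower, against 1129 and 617 with it. The split was 485 and 102 at a common total, where the median over all genes was 0.14, 1178 and 1026 by median of ratios, and 1106 and 1012 without rRNA-like genes. The 3 calls of Klf10, Grem1 and Id1 held under all 13 alternatives, and without vehicle replicate 2 the log2 fold changes were 0.99, 0.67 and -0.94.

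**Figure D4:**
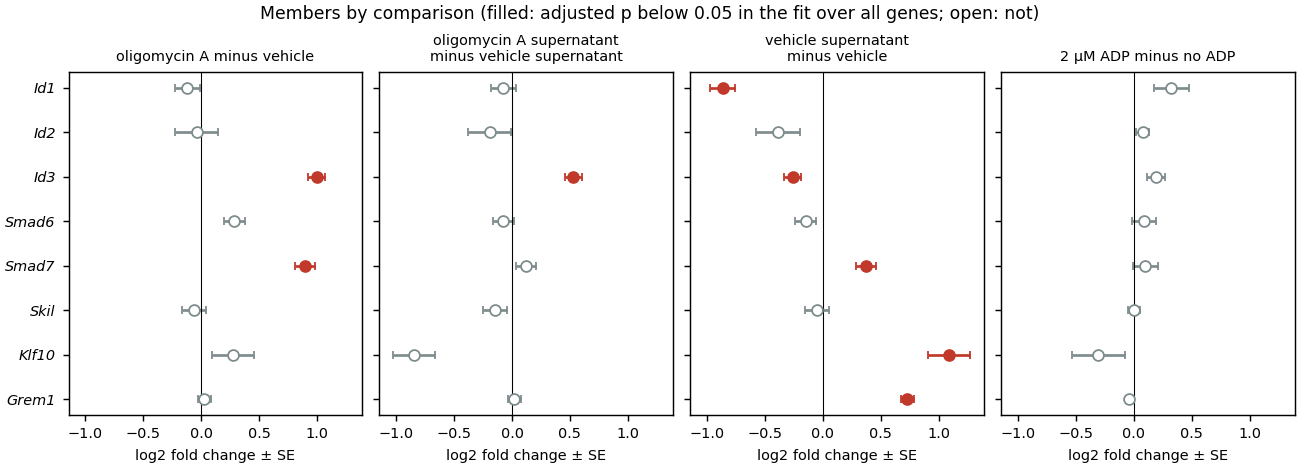
Log2 fold change ± SE (horizontal) of 8 members (rows) in 4 comparisons of MLO-Y4 cells, each from 3 libraries against 3, on the log2(FPKM + 1) scale. Filled points passed an adjusted p below 0.05 over all genes: Id3 and Smad7 after oligomycin A, Id3 in recipients, 5 genes in the vehicle pair and 0 with ADP.

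Of the 52 other pathway genes, 4 were higher and 8 lower in vehicle-supernatant recipients, and their median was -0.0029, against 0.03 over all genes. By list, 1 ligand rose and 1 fell of 4, 1 receptor rose and 1 fell of 9, and 2 secreted antagonists rose and 1 fell of 9. In addition 4 of 11 other targets and 1 of 10 intracellular inhibitors fell. Tob1, an antiproliferative protein that represses BMP-activated Smads in mouse osteoblasts, averaged 31.6 ± 2.70 FPKM in vehicle-supernatant recipients and 57.8 ± 2.35 FPKM in vehicle-treated cells (SD, n = 3 each), and fell by 0.85 on the log2 scale (limma, adjusted p = 0.000128). Junb averaged 66.3 ± 8.56 FPKM in vehicle-supernatant recipients and 118 ± 3.67 FPKM in vehicle-treated cells, and fell by 0.83 (adjusted p = 0.000183).

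Fst, which encodes the activin antagonist follistatin, averaged 9.57 ± 0.87 FPKM in vehicle-supernatant recipients and 5.50 ± 0.46 FPKM in vehicle-treated cells, and rose by 0.70 on the log2 scale (SD, n = 3 each; limma, adjusted p = 0.000845). Inhba, the activin A subunit that follistatin binds, rose by 0.53 (adjusted p = 0.00609). The homeobox gene Msx1, a BMP target, was near the floor of the filter at 1.20 ± 0.0046 FPKM in vehicle-supernatant recipients and 1.91 ± 0.19 FPKM in vehicle-treated cells, and fell by 0.40 (adjusted p = 0.00903). The calls of Tob1, Junb, Fst and Inhba held under all 13 alternatives, and that of Msx1 was lost at a common total (-0.32, adjusted p = 0.103).

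Klf10 and Id1 moved most in the vehicle pair, and the genes nearest to them in pattern were sought. The search covered 6594 genes with a mean of at least 5 FPKM over the 12 libraries of the oligomycin A experiment. Genes with predicted or accession-like names, such as Gm or Rik symbols, were left out. The measure was the root-mean-square difference of log2(FPKM + 1), each gene centred on its own mean. Nearest to Klf10 were Trim25, a ubiquitin ligase, at 0.26, Adam19, a metalloproteinase, at 0.27, Zc3h12a, an RNase that degrades inflammatory mRNAs, at 0.29, Socs3, an inhibitor of cytokine signalling, and Snai1, a transcriptional repressor, at 0.30 each. Klf10 itself had an SD of 0.46 on this scale. Snai1 averaged 28.1 FPKM in oligomycin A-supernatant recipients and 52.3 FPKM in vehicle-supernatant recipients, and 19.6 FPKM in oligomycin A-treated and 24.2 FPKM in vehicle-treated cells.

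Nearest to Id1, whose own SD was 0.44, were Klhl21, a ubiquitin ligase adaptor, at 0.14, Aoc2, an amine oxidase, and Slc9a3r1, a membrane scaffold protein, at 0.17 each, and Cry2, a repressor of the circadian clock, and Mknk2, a kinase downstream of MAP kinases, at 0.20 each. Klhl21 averaged 13.8 FPKM in oligomycin A-supernatant recipients, 15.8 FPKM in vehicle-supernatant recipients, 25.9 FPKM in oligomycin A-treated and 25.4 FPKM in vehicle-treated cells. Like Id1, it was thus low in both groups of recipients. These genes were picked for their likeness, so their levels are a description.

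Cells given 2 µM ADP for 2 h were set against cells without ADP. ADP activates purinergic P2Y receptors. The 8 members tested overlapped between both groups, and 0 of them passed the threshold in limma, with 1 at an unadjusted p below 0.05. Over all 11604 genes 0.0603% passed. Id3 had 32.0, 34.3 and 32.8 FPKM with ADP, against 26.9, 27.0 and 32.7 FPKM without, a log2 fold change of 0.19 ± 0.08 (SE, n = 3 each). Id1 had 14.2, 16.5 and 16.6 FPKM with ADP, against 11.4, 10.4 and 16.0 FPKM without, a log2 fold change of 0.33 ± 0.15.

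In both Id genes the third library without ADP was the highest of its group, at about the level of the ADP libraries. Klf10 had 10.5, 5.40 and 10.6 FPKM with ADP, against 10.6, 10.8 and 10.8 FPKM without. The value of ADP replicate 2 set its log2 fold change of -0.30 ± 0.23, which was -0.02 without that library. Smad7 had 12.01, 12.2 and 11.4 FPKM with ADP, against 9.11, 12.3 and 11.8 FPKM without. Grem1 had 348, 364 and 356 FPKM with ADP, against 366, 362 and 370 FPKM without.

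The log2 fold changes of Id2, Smad6, Smad7, Skil and Grem1 lay between -0.04 and 0.10. Id3 made up 55.5%, 54.7% and 53.0% of the summed Id FPKM with ADP, against 54.6%, 56.2% and 53.9% without. Of the 52 other pathway genes 0 passed and 2 had an unadjusted p below 0.05, with a median of -0.02 against -0.0012 over all genes.

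Young bone fragments after medium transfer were set against control fragments. The libraries stood far apart in their make-up: satellite-like repeats took 66.1%, 5.80% and 89.9% of the summed FPKM in transfer replicates 1 to 3, against 86.1%, 88.6% and 81.7% in controls. FPKM is scaled to the whole library, so this share enters the level of every other gene. The typical gene, by median-of-ratios size factors, stood at 1.97, 1.48 and 0.587 in transfer replicates 1 to 3, against 0.742, 0.765 and 1.03 in controls. It was thus highest in transfer replicate 1. Of the 9 members, 8 were highest in transfer replicate 2, the library with the least satellite-like FPKM, and 7 were lowest in transfer replicate 3, the library with the most. The part of this share in the members' levels was not tested.

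Id3 had 119, 292 and 48.1 FPKM after medium transfer, against 94.0, 68.7 and 129 FPKM in controls. Id1 had 34.1, 177 and 15.3 FPKM after medium transfer, against 44.6, 29.8 and 43.6 FPKM in controls. Id2 had 41.5, 87.2 and 17.6 FPKM after medium transfer, against 28.7, 19.2 and 45.0 FPKM in controls. In all 3 genes the transfer libraries lay on both sides of the controls. In these bulk samples fewer cells of a type and less RNA per cell cannot be told apart.

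Median-of-ratios scaling, which sets libraries by the typical gene, gave Id3 60.2, 197 and 82.0 FPKM after medium transfer, against 127, 89.8 and 126 FPKM in controls. Scaled so, Id1 had 17.3, 119 and 26.0 FPKM after medium transfer, against 60.1, 39.0 and 42.5 FPKM in controls. Scaled so, transfer replicate 2 stayed the highest in both genes, and the other transfer libraries lay below all controls. Rescaling without satellite-like genes, a list made after the data were seen, gave Id3 99.2, 134 and 91.3 FPKM after medium transfer, against 137, 119.7 and 153 FPKM in controls. It gave Id1 28.4, 81.4 and 29.0 FPKM after medium transfer, against 64.9, 52.0 and 51.7 FPKM in controls. Transfer replicate 2 then lay among the controls for Id3 and above them for Id1, and the other transfer libraries lay below all controls in both. In the within-library share of the Id genes, Id3 made up 61.1%, 52.5% and 59.4% after medium transfer, against 56.2%, 58.3% and 59.3% in controls.

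**Figure D5:**
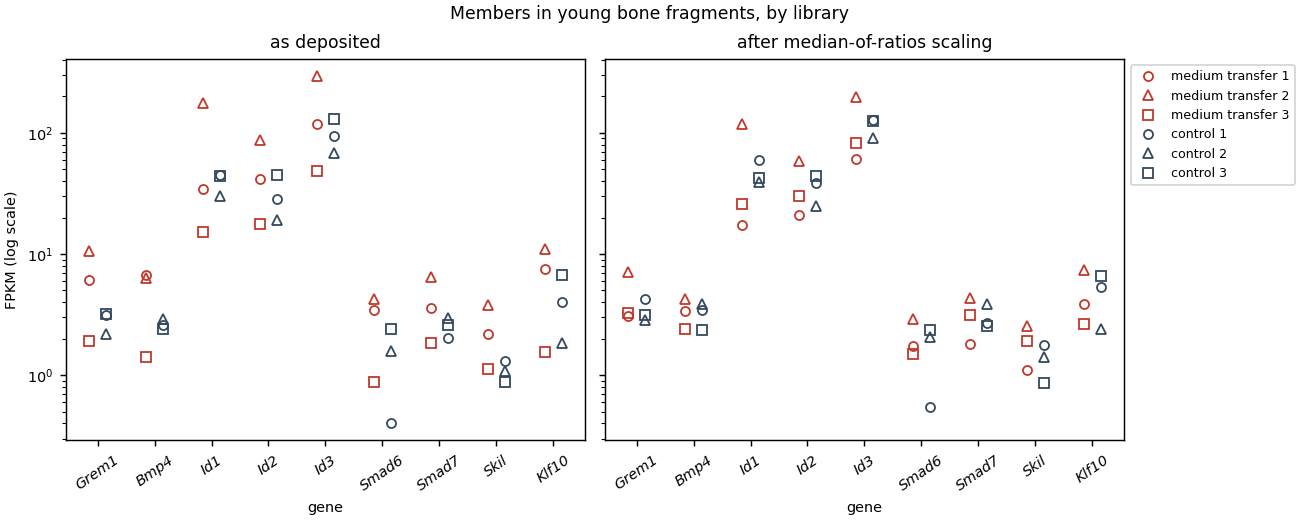
FPKM on a log axis of the 9 members in young bone, as deposited (left) and after median-of-ratios scaling (right), with a point for each of 3 medium transfer and 3 control libraries. Transfer replicate 2 (triangles) was highest for 8 of 9 genes as deposited.

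In limma 0 of the 9 members passed, with 0 at an unadjusted p below 0.05, and 0.0243% of 16438 genes passed. All 9 log2 fold changes were positive as deposited, from 0.23 for Id1 to 0.70 for Grem1, with SEs of 0.60 to 0.92, but the median over all genes was 0.45 too. That median was 0.07 after median-of-ratios scaling, -0.04 after rescaling without satellite-like genes and 0.78 after rescaling to a common total. Relative to all genes the members' median of 0.44 was thus near the middle, and the sign of 6 of the 9 changed under some alternative. Without transfer replicate 2 the log2 fold changes of Id3 and Id1 were -0.31 and -0.73, and without transfer replicate 3 they were 0.98 and 0.99, with none passing the threshold. Of 61 other pathway genes 0 passed, with 0 at an unadjusted p below 0.05.

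Endothelial cells are known for high Id gene expression, and 5 endothelial markers summed to 5.36 to 36.2 FPKM after medium transfer, against 6.57 to 8.53 FPKM in controls. The osteoblast markers summed to 842 to 3453 FPKM after medium transfer, against 587 to 1188 FPKM in controls. All 6 osteoblast markers reached 1 FPKM in each of these libraries, as did 5 or 6 of the 6 osteocyte markers. For 3 of the 9 cell types every transfer library lay above every control. Erythroid markers summed to 10507 to 20877 FPKM after medium transfer, against 3838 to 8062 FPKM in controls. B lineage markers summed to 28.4 to 69.4 FPKM after medium transfer, against 16.6 to 23.7 FPKM in controls. Adipocyte markers summed to 9.83 to 95.3 FPKM after medium transfer, against 3.75 to 4.27 FPKM in controls. In transfer replicate 2 this sum was Fabp4 alone, with Adipoq, Plin1 and Cfd listed at 0. Each control had 1 of 4 adipocyte markers at 1 FPKM or more. The remaining sums overlapped. All were taken from FPKM as deposited, where the median log2 fold change over all genes was 0.45 as well. Rescaled marker sums were not made. The part of these markers in the members' levels was not tested.

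Old bone, a group with no comparison in its table, gave levels alone. Id3 had 43.6, 66.0 and 46.4 FPKM, Id2 27.9, 43.7 and 30.7 FPKM and Id1 16.0, 53.9 and 20.4 FPKM. Old bone replicate 2 was highest for each Id gene, and its summed marker levels were the highest or lowest of the 3 libraries, some by little. It was highest for osteocyte markers, at 205 FPKM against 43.3 and 41.3 FPKM in the others, and lowest for osteoblast markers, at 2614 FPKM against 4161 and 4565 FPKM. It was also lowest for endothelial markers, at 5.33 FPKM against 6.30 and 7.36 FPKM, and for erythroid markers. Neutrophil, B lineage, adipocyte, skeletal muscle and osteoclast markers were highest in it. The neutrophil sums were close, at 97551 and 101502 FPKM in replicates 1 and 3, against 102907 FPKM in replicate 2. This library listed 26564 genes above 0, against 22954 and 22939 in the others. The part of these differences in the Id levels was not tested. Id3 made up 49.9%, 40.3% and 47.6% of the summed Id FPKM in old bone. The members with the lowest means were Skil at 0.55 ± 0.35, Smad6 at 0.60 ± 0.35 and Smad7 at 0.69 ± 0.27 FPKM (SD, n = 3), while Klf10 averaged 5.53 ± 0.72 FPKM.

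Across all groups Id3 had the highest level of the Id genes in each of the 27 libraries, while the next place alternated between Id1 and Id2. Smad7 exceeded Smad6 in 26 of the 27 libraries, old bone replicate 1 being the exception at a ratio of 0.406. Smad7 averaged 11.9 ± 0.43 FPKM with ADP and 11.1 ± 1.74 FPKM without ADP, levels that no library of the oligomycin A experiment reached. As the tables were normalized separately, these levels were set side by side and not tested.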

How the data were processed

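Per the labels' protocols, RNA was selected with oligo(dT) beads and sequenced. Expression values are FPKM in 4 tables as deposited; the program behind them was not given in the sources used here. HTSeq and mm10 appear in the submitters' processing notes, without a stated role. Groups come from sample titles. 27 libraries in 9 groups of 3 were used; 7 of 16 groups were not analysed here. Low FPKM values times transcript length were whole within 0.1 for 26.0% to 53.0% of values, so counts were not recovered, no count test was run, and the depth is unknown. No 2 libraries of a table shared over 0.0254% of their values. Positions came from GENCODE M21, which held 55154 of the 55335 gene IDs.

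Within each table, log2(FPKM + 1) was tested with limma 3.58.1 in R 4.3.3, with a prior variance that follows the mean level. Genes entered where their mean over the fitted libraries was at least 1 FPKM. Fold changes of low genes are understated on this scale. All 4 groups of the oligomycin A experiment were fitted together. A call is a Benjamini-Hochberg adjusted p below 0.05 over all genes tested. The fit was tested on simulated data with independent noise for each gene. These data held no differences in library make-up such as those of vehicle replicate 2 or young bone, so the test does not cover them. Members and the 84 listed pathway genes were chosen with earlier results of these data known. The text names all 9 members, up to 6 listed genes per comparison that passed, by p, and the 5 genes nearest in pattern to Klf10 and to Id1; a listed gene that this rule names is not reported here. Alternatives were another pseudocount, no filter, other scalings, smaller fits, a replicate block and the omission of single libraries. Lists of satellite-like and further rRNA-like genes were made after seeing the data. Replicate numbers were not used as a pairing in the main fit.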

Additional observations from a re-analysis of the deposited data

Results flagged for a closer look

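For Smad7 the log2 fold change in supernatant recipients minus that in treated cells was -0.78. The test of this difference passed the threshold over all genes. Recipients and treated cells also differed in exposure time, 2 h against 1 h, and in medium, which cannot be told apart here. The controls differed too, as Smad7 averaged 5.18 FPKM in vehicle-supernatant recipients and 3.74 FPKM in vehicle-treated cells. The members were chosen with these values known, and the call held under 10 of 18 alternatives.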

How the results depend on the processing

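No called member changed direction under any alternative. The balance of higher and lower genes over all genes did turn without vehicle replicate 2, both after oligomycin A and in the vehicle pair. Of 652 alternative values of the members' fold changes, 621 stayed within 1 SE and 31 moved further. Omitting the filter, adding a replicate block or fitting 6 libraries alters the SE and p but not the fold change. Values under these settings therefore stayed by construction. In young bone 107 of 108 values stayed, at SEs of 0.60 to 0.92, although 6 members changed sign under some alternative. The total of 621 is thus no measure of stability. The count of members passing fell to 0 in recipients on rescaling to a common total and in the fit of 6 libraries, fell to 0 for the difference without the filter, and was 3 for the vehicle pair in the fit of 6 libraries. With a replicate block, it was 0 for the difference, with 1 other pathway gene and 35 genes in all. The block gave 2 members and 6 other pathway genes after oligomycin A, 28 genes in all in recipients, 0 for ADP and 2 for young bone. Same-numbered libraries did not deviate together. Their r was -0.14 to 0.06 in the oligomycin A table, -0.01 to 0.04 for ADP and -0.23 to -0.08 in young bone. Deviations from means of 3 libraries cannot exclude a pairing, and the main fit assumed none. The cause of these changes was not tested.

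Other pathway genes passing after oligomycin A numbered 10 under median-of-ratios scaling and 11 without rRNA-like genes. They were 1 in recipients under both, 1 for the difference without the filter or at a common total, and 5 for the vehicle pair at a common total. Among all genes, those passing after oligomycin A were 386 without the filter, 276 at a common total, 1166 by median of ratios, 412 in the fit of 6 libraries and 1133 without rRNA-like genes, against 636. In recipients they were 23, 17, 77, 7 and 90 under the same settings, against 46. For the difference they were 31 at a common total, 99 by median of ratios and 112 without rRNA-like genes, against 53. For the vehicle pair they were 587 at a common total and 829 in the fit of 6 libraries, against 1746. Without the filter 0 passed for ADP and 0 for young bone. Young bone had 2 at a common total and 0 by median of ratios or without satellite-like genes.

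On leaving out 1 library at a time, the genes passing numbered 265 to 652 after oligomycin A, 22 to 59 in recipients, 35 to 70 for the difference, 1002 to 1359 for the vehicle pair, 0 to 40 for ADP and 0 to 7 for young bone. Members passing then numbered 2 after oligomycin A, 0 to 1 in recipients and for the difference, and 3 to 4 for the vehicle pair. Other pathway genes numbered 4 to 9 after oligomycin A, 1 to 2 for the difference and 8 to 12 for the vehicle pair. Without vehicle replicate 2, 286 genes were higher and 366 lower after oligomycin A, against 442 and 194 with it. FPKM values carry no depth, so the precision of low members such as Bmp4, Smad6 and Skil is unknown.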
